A study of Pinus elliottii with 16 samples.

Results

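In slash pine (Pinus elliottii) trees that were wounded and given no paste, 131 features of the vascular cambium had lower RNA levels at day 15 than at day 5 in every library. They are 131 of the 8949 features in the deposited tables and of the 5856 with enough signal to be compared, which had a normalized fragment count of 10 or more in at least 4 of the 16 libraries. A member had all 4 control day 15 libraries below all 4 control day 5 libraries and a mean difference of -1 or less in log2(count + 1), which is a halving or more. A further condition removed any feature whose 4 paste day 5 libraries all lay above, or all below, the 4 control day 5 libraries. It removed 18 features that lay below and 0 that lay above. The members were thus chosen on the control time difference and partly on paste at day 5, so those values are given as a description and no test is attached to them.

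The vascular cambium is the dividing cell layer between wood and bark, and it forms new xylem inward and new phloem outward. In pines, wounding of the stem sets off defence gene expression, hormone signalling, new resin ducts and repair tissue over days to weeks, and resin tapping draws on that response. Ethylene is one of the hormones that raise resin formation, and commercial tapping pastes use acid and an ethylene source to keep the wound flowing. No table used here pairs the identifiers with gene names or descriptions, so neither the role of a member nor marker genes of the cambium could be checked, and no sequence is shown.

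The study compared 4 groups of 4 libraries each. Paste day 15 and paste day 5 trees had the bark stripped and received a streak of stimulant paste with 3% Ethrel (2-chloroethylphosphonic acid, which releases ethylene) and 20% sulfuric acid in rice husk powder. Control day 15 and control day 5 trees had the bark stripped and received no paste. All were trees of 16 years of 1 stand that had been tapped with conventional paste every fortnight for a year beforehand, so the controls too had a history of paste. Tissue came from slightly above the wound, where cells of several types are sampled together, and a lower level in fewer cells cannot be told apart from less RNA per cell. Days after wounding and the sampling date cannot be told apart either.

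The unit throughout is the normalized fragment count, which the authors made by scaling each library's estimated fragments with 1 factor per library. Libraries held 3323974 to 5203903 estimated fragments, of which the members took 35737 to 304885. The median of all features tested stayed between 7.23 and 7.38 on the log2(count + 1) scale in the 16 libraries. Replicate 1 of paste day 15 and replicate 1 of paste day 5 held almost the same values, with a Pearson correlation of 0.986 across the tested features, and 122 of the 131 members differed by less than 2-fold between them. Paste day 15 replicate 3 had a mean correlation of 0.901 with the paste day 5 libraries and 0.763 with the others of its group. Results that rest on these 3 libraries are given with and without them.

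In control trees the members' median difference, day 15 minus day 5, was -1.69 on the log2 scale, a 3.24-fold lower level. Over all 5856 features the median difference was 0.02. Among the members 82 were 2- to 4-fold lower at day 15, 34 were 4- to 8-fold lower, 10 were 8- to 16-fold lower and 5 were more than 16-fold lower. These classes are of count + 1, so for members near 0 at control day 15 they depend on the 1 that was added. The first 2 conditions of the rule were met by 149 features, 2.54% of those tested, and lower values in every day 15 library alone by 406 features, 6.93%. These shares count all features tested and depend on the data and on the limits of the rule. The fit across all features called 0 of them between the control days after adjustment (limma), and at an unadjusted p below 0.05 it had 5.21% of all features lower and 4.78% higher at day 15. Libraries that carry the same replicate number gave a members' median difference of -1.84 for number 1, -1.29 for number 2, -2.21 for number 3 and -1.19 for number 4, so the size of the drop differed between the numbered pairs.

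**Figure D1:**
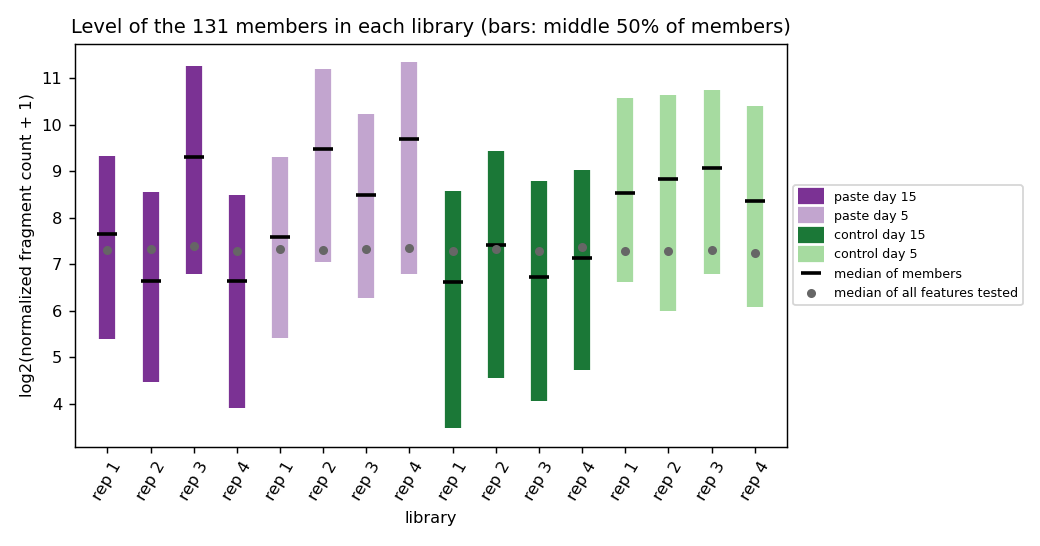
Level of the members in each of the 16 libraries on the log2(normalized fragment count + 1) scale; bars span the interquartile range of the 131 members, black dashes mark their median and grey dots the median of all 5856 features tested. The members' median lies at 6.61 to 7.42 in control day 15 and at 8.35 to 9.06 in control day 5, while the paste libraries run from 6.64 to 9.70.

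At control day 5, where the rule picked high values, the members ranked above most features. Their median rank by control day 5 level was the 69.8th percentile of the tested features, and 57 of the 131 (43.5%) were in the top 25%. The median member averaged 147 normalized counts in control day 15 and 444 in control day 5, while the median of all features tested was 168 in control day 15 and 158 in control day 5. At control day 15 the median member was thus below the median feature. Members averaging 1000 or more numbered 17 in control day 15 and 48 in control day 5, and those averaging under 10 numbered 23 in control day 15 and 2 in control day 5. Together the members took 1.51 ± 0.36% of the signal in control day 15 libraries and 4.10 ± 0.53% in control day 5 libraries (SD, n = 4 each). The 10 most abundant members made up 47.8% of the members' sum in control day 5. Without the single most abundant one the shares were 1.31 ± 0.34% in control day 15 and 3.69 ± 0.47% in control day 5 (SD, n = 4 each).

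By kind of identifier, 98 members were PITA loci, 28 were PITAhm loci and 5 had the name of an assembled transcript. PITA loci were 74.8% of the members and 68.4% of the features tested, and transcript-named features were 3.82% of the members and 8.35% of those tested. One member carried the authors' low-data status, as did 34 of the features tested. At the edge of the rule, the 3 members nearest the limit had log2 differences of -1.0015 to -1.0074, and the 3 nearest features outside it, which met every other condition, had -0.9901 to -0.9946. The member closest to the limit averaged 214 in control day 15 and 444 in control day 5, and the closest feature outside averaged 474 in control day 15 and 940 in control day 5.

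PITA_000054408 and PITA_000040487 had the most negative control differences among members averaging at least 100 at control day 5. PITA_000054408 stood below 1 normalized count in all 4 control day 15 libraries, with a highest value of 0.890, and at 233, 31.9, 125 and 59.4 in control day 5. Its control day 15 value was near the worth of a single fragment in replicate 3 and below that worth in the other replicates. Its log2 difference of -6.07 therefore depends on the pseudocount and no fold is given. PITA_000040487 was at 6.22, 148, 125 and 252 in control day 15 and at 1643, 686, 7300.0 and 3950.2 in control day 5, a log2 difference of -4.96. Every control day 15 library was thus well under the lowest control day 5 library for both members.

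The most abundant members were PITA_000078927 and PITA_000049703. PITA_000078927 was at 7307, 7949.99, 8354 and 9065 in control day 15 and at 12699, 24007, 25529.7 and 14323 in control day 5, a log2 difference of -1.17. Its control day 15 libraries lay close together and its control day 5 libraries lay further apart. PITA_000049703 was at 1028, 6758, 197 and 1193 in control day 15 and at 9729.7, 14051, 13871 and 9238 in control day 5, a log2 difference of -3.34. Control day 15 replicate 2 was far above the other 3 libraries of its group for this member and still below every control day 5 library.

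**Figure D2:**
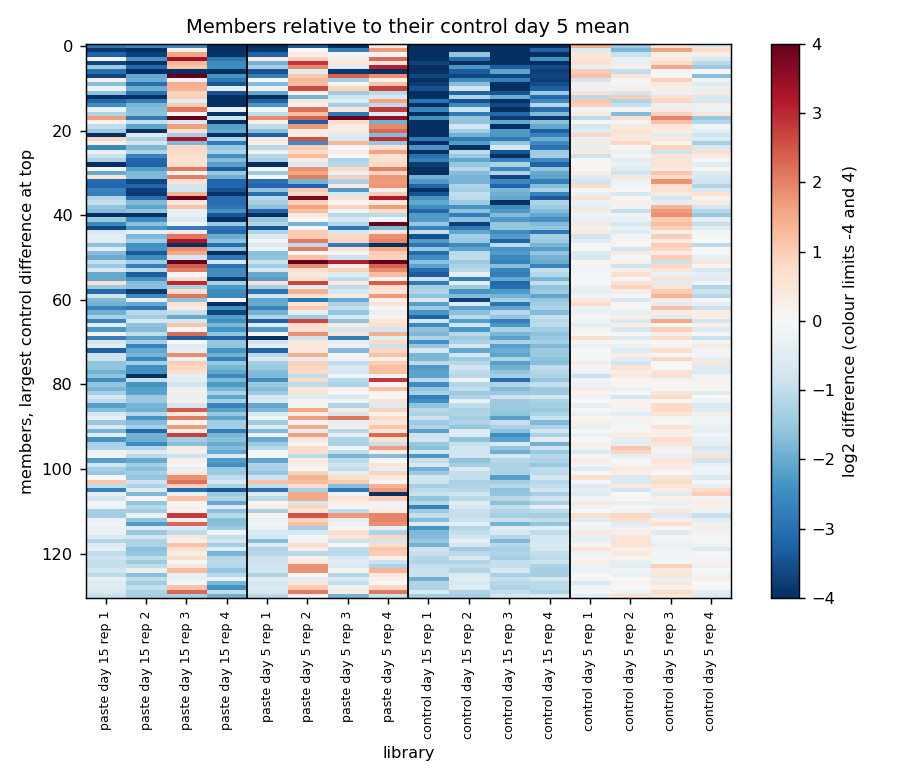
Each row is 1 of the 131 members and each column a library; colour gives the log2(normalized fragment count + 1) difference from the member's own control day 5 mean, blue lower and red higher, with colour limits at -4 and 4. Control day 15 is blue throughout by the rule, paste day 15 replicates 2 and 4 are mostly blue, and paste day 15 replicate 3 and paste day 5 replicates 2 and 4 are mostly white to red.

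The comparison of paste day 15 with paste day 5 asked whether the same features were also lower at the later day in paste-treated trees. The mean of 126 of the 131 members was lower at paste day 15 than at paste day 5, 96.2%, against 48.2% of all features tested. The members' median log2 difference was -1.11, a 2.15-fold lower level, against 0.02 over all features. Paste libraries entered the rule through the 18 features removed and through the filter on low values, which counted all 16 libraries. On the control libraries alone 122 of the 131 members passed that filter, and 117 of these 122 were lower at paste day 15, with a median log2 difference of -1.08. Without the paste day 15 libraries 130 passed. The 18 removed features lay below control at paste day 5, so their removal favours a lower paste day 15 among the members that stayed. This holds for every count of members between the paste days. Of the members 73 were at least 2-fold lower and 0 at least 2-fold higher, where 7.63% and 8.57% of all features were. The 2 time comparisons share no library. Lower paste values at the later day were also common outside the members: of the other 321 features tested with a control difference of -1 or less, 289 were lower in paste, 90.0%, with a median of -1.09. The 167 features picked by the mirrored rule for higher levels at day 15 in controls had a median log2 difference of 1.28 in paste, and 166 of them were higher.

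The spread between paste libraries was large, and no feature passed the test across all features in this comparison (limma, 0 of 5856, smallest Benjamini-Hochberg adjusted p = 0.819, n = 4 per group). At an unadjusted p below 0.05 there were 19 members that were lower, 14.5% of them, and 0 that were higher. Among all features 1.47% were lower and 2.19% higher. In a limma fit of the 2 paste groups alone, 5 members were lower and 0 higher at that limit, where 0.664% of all features were lower. The rule's removal of features low at paste day 5 favours the lower direction, so these member counts are a description. In 0 of the 131 members did every paste day 15 library lie below every paste day 5 library, against 0.359% of all features. Without paste day 15 replicate 3 this count was 40, and without the near-identical pair it was 5. Separation is easier with fewer libraries, and the share of all features was not taken for these smaller sets. The counts of 40 and 5 are therefore no result about the members. The median SD of the members' log2 values was 1.38 in paste day 15 and 1.12 in paste day 5, against 0.65 and 0.55 over all features. For the members it was 0.64 in control day 15 and 0.54 in control day 5. The fit shared its estimate of the spread across the 4 groups, so the members' SEs and p-values between the paste days may be too small.

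**Figure D3:**
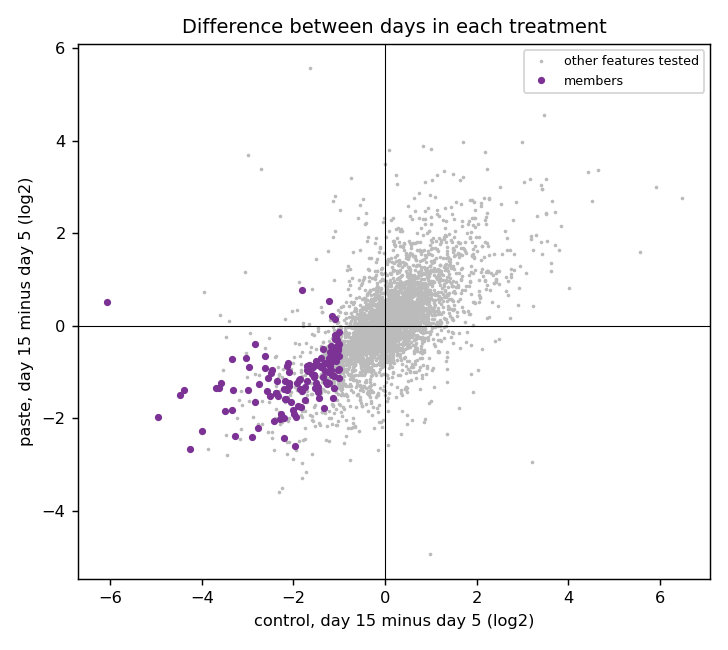
Each dot is a feature; the x axis is control day 15 minus control day 5 and the y axis paste day 15 minus paste day 5, both as differences of mean log2(normalized fragment count + 1). The members, in purple, lie at -1 or less on the x axis by the rule, and 126 of the 131 lie below 0 on the y axis.

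Without the near-identical pair the members' median log2 difference between paste day 15 and paste day 5 was -1.47. Of the members 127 were lower, where 48.4% of all features were. At least 2-fold lower were 100 members (11.2% of all features), and 0 were at least 2-fold higher (12.2% of all features). The fit again called 0 features (limma, smallest adjusted p = 0.600). Without that pair and paste day 15 replicate 3, the median was -2.23, a 4.69-fold lower level. In that setting 128 of 131 members were lower, against 48.2% of all features. By this measure 120 members were at least 2-fold lower, where 18.4% of all features were, and 1 was at least 2-fold higher, where 19.9% were. That fit called 78 of the 130 members still tested lower at paste day 15 and 0 higher, while 9.45% of all features tested were called lower and 10.6% higher (limma, adjusted p below 0.05). In 101 members paste day 15 replicates 2 and 4 both lay below paste day 5 replicates 2 to 4, 77.1% of the members against 24.8% of all features, and in 1 member both lay above them, against 24.5% of all features. The third of these libraries, paste day 15 replicate 3, was left out for its likeness to day 5, a choice that itself favours a difference, and it left 2 libraries in the paste day 15 group.

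The paste libraries differed from each other in a way that ran through most members. Paste day 15 replicate 4 had 115 members at or below the highest control day 15 value, and paste day 15 replicate 2 had 106. In paste day 15 replicate 3 there were 105 members at or above the lowest control day 5 value, and 56 of these were above the highest control day 5 value. It was the highest of the 4 paste day 15 libraries for 111 members, 84.7%, against 39.4% of all features. Paste day 5 replicates 2 and 4 had 110 and 112 members at or above the lowest control day 5 value, with 68 and 69 above the highest. By the rule each member had at least 1 paste day 5 library at or above the lowest control day 5 value. The paste day 5 counts are therefore partly fixed by the rule. Paste day 5 replicate 3 was intermediate, with 67 members at or above the lowest control day 5 value and 37 at or below the highest control day 15 value. The near-identical libraries, paste day 15 replicate 1 and paste day 5 replicate 1, had 76 and 78 members at or below the highest control day 15 value.

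**Figure D4:**
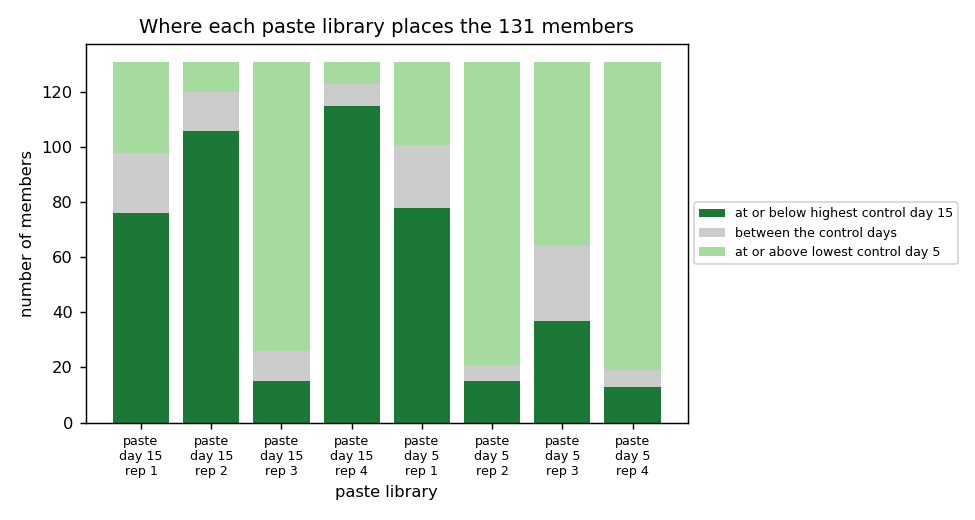
For each of the 8 paste libraries, the bar divides the 131 members into those at or below the highest control day 15 library, those between the control days and those at or above the lowest control day 5 library. Paste day 15 replicates 2 and 4 place 106 and 115 members in or below the control day 15 range, and paste day 15 replicate 3 places 105 in or above the control day 5 range.

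Among the members, 95 had both paste day 15 replicates 2 and 4 in or below the control day 15 range, and 87 had paste day 15 replicate 3 and paste day 5 replicates 2 and 4 all in or above the control day 5 range. Both held for 62 members, 47.3%. The paste day 5 part of these patterns is partly fixed by the rule. Both ranges come from the control libraries that the rule used. No share of all features was taken for these counts or for the members placed in each range per library, so they are a description. The members took 2.28, 1.35, 6.11 and 1.53% of the signal in paste day 15 replicates 1 to 4, and 2.28, 6.34, 3.81 and 6.99% in paste day 5 replicates 1 to 4. Paste day 15 replicate 3 and paste day 5 replicates 2 and 4 were thus above all 4 control day 5 libraries, which ran from 3.70 to 4.88%. In the same order they had sums of normalized counts of 5.95e+06, 5.77e+06 and 5.60e+06, the largest of the 16 libraries. They also had the fewest features above 0, with 6351, 6437 and 6404. What set these libraries apart was not tested. Over the 8 paste libraries the median correlation between pairs of members was 0.76, against 0.00 between pairs of all features tested. These values are a description over 8 libraries that include the near-identical pair.

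The control day 5 libraries were chosen high for the members, so a lower value in paste at day 5 is favoured by the rule. The removal of 18 features that lay below control favours the other direction. Between paste and control at day 5 the members had a median log2 difference of -0.21. In paste 80 were lower and 51 higher, where 52.8% of all features were lower. Over all features the fit called 0.444% lower and 0.188% higher in paste at day 5 (limma, adjusted p below 0.05), and 8.93% lower and 8.45% higher at an unadjusted p below 0.05. The range was -3.97 to 3.30, since the rule removed only features with complete separation, a state that 13.1% of all features tested were in. The members at least 2-fold lower in paste numbered 21, 16.0%, where 11.1% of all features were. Those at least 2-fold higher numbered 13, 9.92%, where 10.1% were. Paste day 5 replicate 1, of the near-identical pair, was the lowest of its group for 97 members, 74.0%, against 29.2% of all features. The differences at day 5 are given only with that library. The 18 features that the rule had removed for lying below control in all paste day 5 libraries had a median paste time difference of -0.48, with 15 of 18 lower at paste day 15.

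PITA_000057280 and PITAhm_002526 had the most negative paste time differences among members averaging at least 20 over the paste libraries. PITA_000057280 was at 1.65, 0.998, 84.4 and 4.82 in paste day 15 and at 7.78, 233, 43.2 and 47.0 in paste day 5. Its log2 difference was -2.67 (SE 1.10, limma adjusted p = 0.819), and paste day 15 replicate 3 was the one library of that day within the paste day 5 range. Without the near-identical pair and that library, which was left out for its likeness to day 5, the difference was -4.54. That value rested on 2 paste day 15 libraries, at 0.998 (the worth of 1 fragment) and 4.82, so its size depends on the pseudocount. PITAhm_002526 was at 48.7, 34.9, 5198 and 61.3 in paste day 15 and at 50.1, 4929.9, 828 and 3654 in paste day 5. Its control day 15 values were 29.6, 32.6, 13.5 and 22.7, and its control day 5 values were 98.6, 112, 51.7 and 135. Replicate 3 of paste day 15 and replicates 2, 3 and 4 of paste day 5 were therefore far above every control library, and the other 4 paste libraries were all within or below the control day 5 range. Its log2 difference between the paste days was -2.59 (SE 1.50, limma adjusted p = 0.819), and -5.70 without the 3 libraries, again with 2 paste day 15 libraries.

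Among members averaging at least 20 over the paste libraries, the most positive paste time differences belonged to PITA_000053655 and a transcript-named member. PITA_000053655 was at 499.9, 264, 296 and 358 in paste day 15 and at 501, 260.4, 148 and 162 in paste day 5, a log2 difference of 0.54 (SE 0.42, limma adjusted p = 0.819). In controls it was at 110.4, 316, 341 and 245 at day 15 and at 569.7, 413, 440.2 and 832 at day 5. Outside the near-identical pair its paste libraries lay between 148 and 358 at both days, below every control day 5 library. The transcript-named member was at 1141, 414, 1158 and 512 in paste day 15 and at 1014, 4063, 1215 and 29.7 in paste day 5, with a log2 difference of 0.22 (SE 1.05, limma adjusted p = 0.966). That difference turned to -0.21 without the 3 libraries. Its paste day 5 libraries ran from below the lowest to above the highest value of paste day 15.

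Of the 4 members named for their control values, 3 had their highest paste values in the same libraries. PITA_000040487 was at 165, 65.8, 2773 and 145 in paste day 15 and at 162, 2355, 359.8 and 7725 in paste day 5. PITA_000078927 was at 9254, 7756, 35447 and 7457 in paste day 15 and at 9293, 30078, 5666 and 48364 in paste day 5. For both, paste day 15 replicate 3 was the highest of its group, and paste day 5 replicates 2 and 4 were the highest of theirs. PITA_000049703 was at 9553, 3003, 30100.4 and 8492 in paste day 15 and at 10166, 70794, 21442 and 75989 in paste day 5, so that these same 3 libraries, with paste day 5 replicate 3, exceeded every control library. PITA_000054408 was at 10.7, 12.965, 14.3 and 0.550 in paste day 15 and at 0.00319, 7.48, 0.00107 and 112 in paste day 5, with a log2 difference of 0.50 between the days (SE 1.28, limma adjusted p = 0.924). That difference turned to -0.51 without the near-identical pair and to -1.08 without the 3 libraries. Its paste day 5 libraries spanned the levels of both control days.

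**Figure D5:**
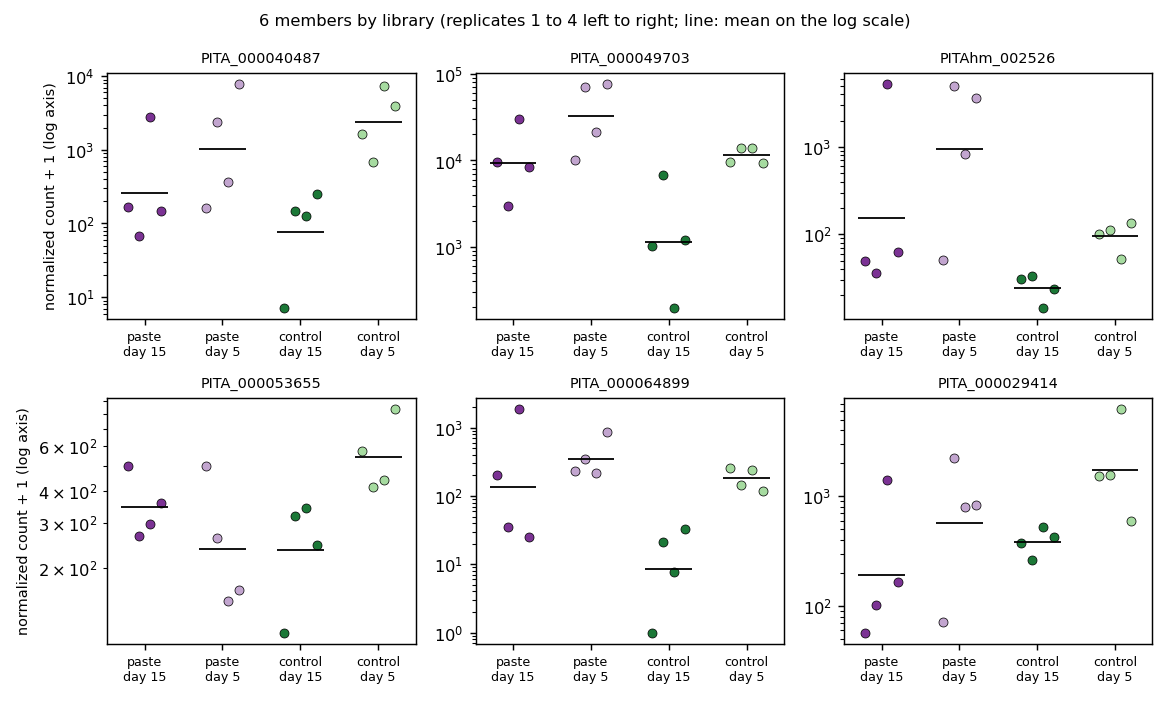
Normalized fragment count + 1 on a log axis for 6 members, with replicates 1 to 4 from left to right in each group and a line at the mean on the log scale. In 5 of the 6 panels, all but PITA_000053655, paste day 15 replicate 3 is the highest of its group.

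At day 15 paste was compared with control. The control day 15 libraries were chosen low for the members, so a higher value in paste is favoured by the rule. The members' median log2 difference, paste minus control, was 0.51, and 101 of 131 were higher and 30 lower in paste, where 51.7% of all features were lower. At least 2-fold differences were seen in 38 members that were higher and 3 that were lower, where 7.17% and 8.23% of all features were. No test is attached to the members here for that reason. Over all features none passed the test (limma, 0 of 5856, smallest adjusted p = 0.268), and at an unadjusted p below 0.05 there were 4.53% higher and 4.68% lower in paste. Every paste day 15 library lay above every control day 15 library for 3 members and below for 1, where 1.91% and 1.72% of all features did. Without paste day 15 replicate 3 the median was 0.00, and without that library and the near-identical pair it was -0.20. In the latter setting 79 members were lower in paste and 52 higher, where 49.0% of all features were lower. Most of the positive median at day 15 thus went with 1 library, paste day 15 replicate 3.

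Among members averaging at least 20 over the paste day 15 and control day 15 libraries, PITA_000064899 and PITA_000025205 had the most positive differences between paste and control. PITA_000064899 was at 200, 33.9, 1856 and 24.1 in paste day 15 and at 0, 20.5, 6.74 and 31.9 in control day 15, a log2 difference of 3.97. The groups overlapped, and the difference was 1.78 without paste day 15 replicates 1 and 3. PITA_000025205 was at 43.7, 0.998, 359 and 6.88 in paste day 15, and in control day 15 at 1.56 and 3.72 in replicates 1 and 2 and at 0 in replicates 3 and 4. Its log2 difference was 3.59, and 1.09 without paste day 15 replicates 1 and 3. The control values of at most a few fragments also make its size depend on the pseudocount.

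Above the same mean of 20, the most negative differences between paste and control at day 15 belonged to PITA_000002597 and PITA_000029414. PITA_000002597 was at 562, 2555, 439 and 348 in paste day 15 and at 1729.9, 1715, 1194 and 2121 in control day 15, a log2 difference of -1.27. In it 3 paste libraries were below every control library and replicate 2 was above them all. PITA_000029414 was at 56.1, 102, 1399.6 and 162 in paste day 15 and at 370.2, 261, 518 and 422 in control day 15, a log2 difference of -0.9972, and -1.56 without paste day 15 replicates 1 and 3. Here replicate 3 was above every control library and the other 3 paste libraries were below them.

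The members followed a shared course over the 16 libraries, with a median Pearson correlation of 0.85 between a member and the median of all members after scaling, and 80 of the 131 above 0.8. The range was 0.01 to 0.96, and the control part of this course was fixed by the rule. Among features that are not members, PITAhm_002226 and PITA_000075807 were the most alike, with correlations of 0.97 and 0.96 over 16 libraries. Both were lower in every control day 15 library than in every control day 5 library, with mean differences of -0.87 and -0.56 that missed the limit of the rule.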

How the data were processed

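The 16 libraries of cambium RNA, 4 in each group, were grouped and numbered by their titles. Libraries were depleted of ribosomal RNA (RiboZero) and read from 1 end for 125 bp on an Illumina HiSeq, according to the labels' protocols. The submitters' processing notes name Trimmomatic 0.32, FastQC, Cufflinks 2.1.1 and HISAT2 2.0.4. For the genome build, annotation, strand setting and handling of reads with several matches, the answer is not given in the sources used here, so near-identical or overlapping features may share fragments. What the authors deposited is a normalized signal: Cufflinks' estimated fragments per feature, rescaled with 1 size factor per library, per the file headers and the pattern of low values. A table of the whole series was not used. Many low values were whole multiples of the worth of 1 fragment, but others were fractional, so no count model was run. Estimated fragments are the sum of a library over that worth.

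The members, lists and tests were chosen with earlier results of these data known. Gene lists by description could not be run. Features with a value of 10 or more in at least 4 libraries were tested. On log2(value + 1), limma 3.58.1 (R 4.3.3) estimated a mean per group from the 16 libraries together, using its trend and robust options, and p-values (two-sided) were Benjamini-Hochberg adjusted over all features with a threshold of 0.05. The fit was also run on simulated data with independent noise in each feature and library. Those data held no near-identical or outlying library, so that run does not cover the spread of the paste libraries. Differences of log2(value + 1) understate changes of low features. Named members were, per comparison, the 2 most extreme in each direction above a mean of 100 in control day 5 or of 20 in the paste and day 15 comparisons, and the 2 most abundant. The labels call the libraries biological replicates and speak of 4 trees without tying libraries to trees, so p-values measure the spread between these libraries. Deviations of control libraries that share a number at both days correlated by 0.25 to 0.56, and each was closest to its own number, while paste day 15 and paste day 5 libraries of the same number ranged from -0.31 to 0.58. Control libraries of the same number were thus alike across days, where the members get no test. Whether they share a tree is not known. Among the paste libraries only number 1, the near-identical pair, was closest to its own number. Alternatives were rescaling by median of ratios or totals, pseudocounts of 0.5 and 4, no filter, a fit of 2 groups, a replicate block, array quality weights, and leaving out libraries.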

Additional observations from a re-analysis of the deposited data

Results flagged for a closer look

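Of 60 groups of 4 values examined, 12 held a value far from the other 3 of its group, while about 1 in 20 would be picked out by chance. The values were taken without logs, and the named members were partly chosen for extreme paste values, so that rate need not hold. Control day 15 replicate 1 had 3323974 estimated fragments, and the other 3 had 4547994 to 4798477.

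Paste day 15 replicate 3 was the far value for 7 members. It was at 2773 for PITA_000040487 (others 65.8 to 165), at 35447 for PITA_000078927 (others 7457 to 9254) and at 84.4 for PITA_000057280 (others 0.998 to 4.82). It was at 5198 for PITAhm_002526 (others 34.9 to 61.3), at 1856 for PITA_000064899 (others 24.1 to 200), at 359 for PITA_000025205 (others 0.998 to 43.7) and at 1399.6 for PITA_000029414 (others 56.1 to 162).

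PITA_000002597 was at 2555 in paste day 15 replicate 2 (others 348 to 562) and at 11928 in paste day 5 replicate 4 (others 473 to 1492). PITA_000054408 was at 112 in paste day 5 replicate 4 (others 0.0011 to 7.48). PITA_000049703 was at 6758 in control day 15 replicate 2 (others 197 to 1193).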

How the results depend on the processing

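The rule gave 115 to 245 members when 1 library was left out, with 245 without control day 15 replicate 2, and 93 members with each library scaled to its total, of which 90 were shared with the 131. Between paste day 15 and paste day 5 the members' median log2 difference stayed negative under every alternative, from -1.65 to -0.79 with 1 library left out (the extremes came without replicate 3 and without replicate 4 of paste day 15), and was -2.23 without 3 libraries, the near-identical ones and replicate 3 of paste day 15. That last fit called 1149 features and 78 members, and every other alternative called 0. Members lower in every paste day 15 library numbered 0 to 40 with 1 library left out, with 40 without paste day 15 replicate 3, 1 with scaling to the total, 5 without the near-identical pair and 101 without the 3 libraries. Separation is easier with fewer libraries. Of these counts only the 101 had its share of all features taken, which was 24.8%. Between paste day 15 and control day 15 the median ran from 0.00 to 0.74 with 1 library left out, and turned to -0.20 without the 3 libraries. In that comparison 0 to 1 features were called with 1 library left out, the 1 without paste day 15 replicate 2, and 3 with the replicate block, of which 0 were members. The replicate block called 0 features between the paste days and, in a fit added after seeing the data, 0 between the control days (limma, 553 at an unadjusted p below 0.05, and 585 without the block). The count-model alternative was not run, since whole reads could not be recovered. With 4 libraries per group and this spread between paste libraries, a member that was 2-fold lower need not pass the test.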
